A study of Homo sapiens with 8 samples.

Results

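The 40 genes described here are targets of the hypoxia-inducible factors (HIF) and enzymes of glycolysis, taken by gene symbol from the 60649 gene identifiers of each deposited abundance table. They were listed because earlier results of the same libraries had shown *CA9* and *SLC2A1* moving in different ways, so the values of those 2 genes are described without a test, and counts of calls refer to the other 38. The RNA came from HCT116 cells, an established human line of colorectal carcinoma, and from UF1hypo, 1 clone of these cells with a single *UHRF1* allele knocked out. Lentivirus brought a short hairpin RNA into each line, either scrambled (shScr) or directed at *UHRF1* (shUHRF1), and puromycin-resistant pools were kept, which gave 4 groups of 2 libraries: HCT116 shScr, HCT116 shUHRF1, UF1hypo shScr and UF1hypo shUHRF1. All cells grew in standard culture with serum, and no low-oxygen treatment is named. Nothing states that the libraries of a group came from separate cultures, so the p-values measure only the spread between these libraries.

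HIF are transcription factors that accumulate when oxygen is scarce, because the prolyl hydroxylases that mark their alpha subunits for destruction need oxygen to work. They bind a short DNA core upstream of genes for glucose uptake, glycolysis, acid export, blood vessel growth and mitophagy, and they also switch on feedback genes that limit their own activity. Glycolysis runs at a high rate in colorectal cancer cells even in the presence of oxygen, so many of these enzymes are among the abundant messages of such a line. UHRF1 binds hemimethylated DNA and recruits DNMT1, which copies DNA methylation after replication.

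*UHRF1* was measured at 87.5 and 98.4 TPM (a transcript level scaled by gene length, with an equal sum in every library) in HCT116 shScr. The HCT116 shUHRF1 libraries had 31.7 and 32.7 TPM, while UF1hypo went from 47.3 and 50.6 with shScr to 34.1 and 21.1 with shUHRF1, so the libraries of each knockdown group lay below their controls. The aligned bases ranged from 5.42 to 7.83 gigabases per library. Read counts were not part of the tables used here, and the counting error behind each TPM is not known. Of 9 colorectal epithelial markers, 3 (*CDX1*, *VIL1* and *CDH17*) stayed under 1 TPM in every library, and their summed level was lowest in HCT116 shScr (4354 and 4408 TPM) and highest in UF1hypo shUHRF1 (up to 12706 TPM). Whether that difference between groups has a part in the results was not tested. The 5 leukocyte and the 3 endothelial markers were all under 1 TPM. Of 5 fibroblast markers only *COL1A1* exceeded that level, with up to 65.5 TPM in UF1hypo shUHRF1. The UF1hypo libraries differed from each other by GC content: the gap between both UF1hypo shUHRF1 replicates was related to transcript GC content, with Spearman's rho at -0.82 over 13620 genes. The same relation was 0.51 for UF1hypo shScr, with 0.04 and 0.07 for the shScr and shUHRF1 groups of HCT116, across genes that are not independent replicates. Values corrected for GC content and transcript length are therefore given as an alternative, beside single results and together after the comparisons.

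Across all groups the members spanned a wide range of levels. *GAPDH*, the dehydrogenase of mid-glycolysis, was the most abundant with 4939 to 6702 TPM per library, followed by *ENO1*, which encodes the main enolase, with 2511 to 3637 TPM. *LOX*, a collagen crosslinking oxidase, was the least abundant with 0.15 to 0.48 TPM. It passed the level needed for a test (TPM above 1 in at least 1 library of a comparison) in no comparison and was not tested, which left 37 tested members beside *CA9* and *SLC2A1*. The 16 enzymes from hexokinase to lactate dehydrogenase together made up 1.70% and 1.79% of all TPM with shScr and 1.57% and 1.49% with shUHRF1 in HCT116, and 1.82% and 1.96% with shScr and 1.70% and 1.39% with shUHRF1 in UF1hypo. Those shares were below the controls in both libraries of each knockdown group.

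**Figure D1:**
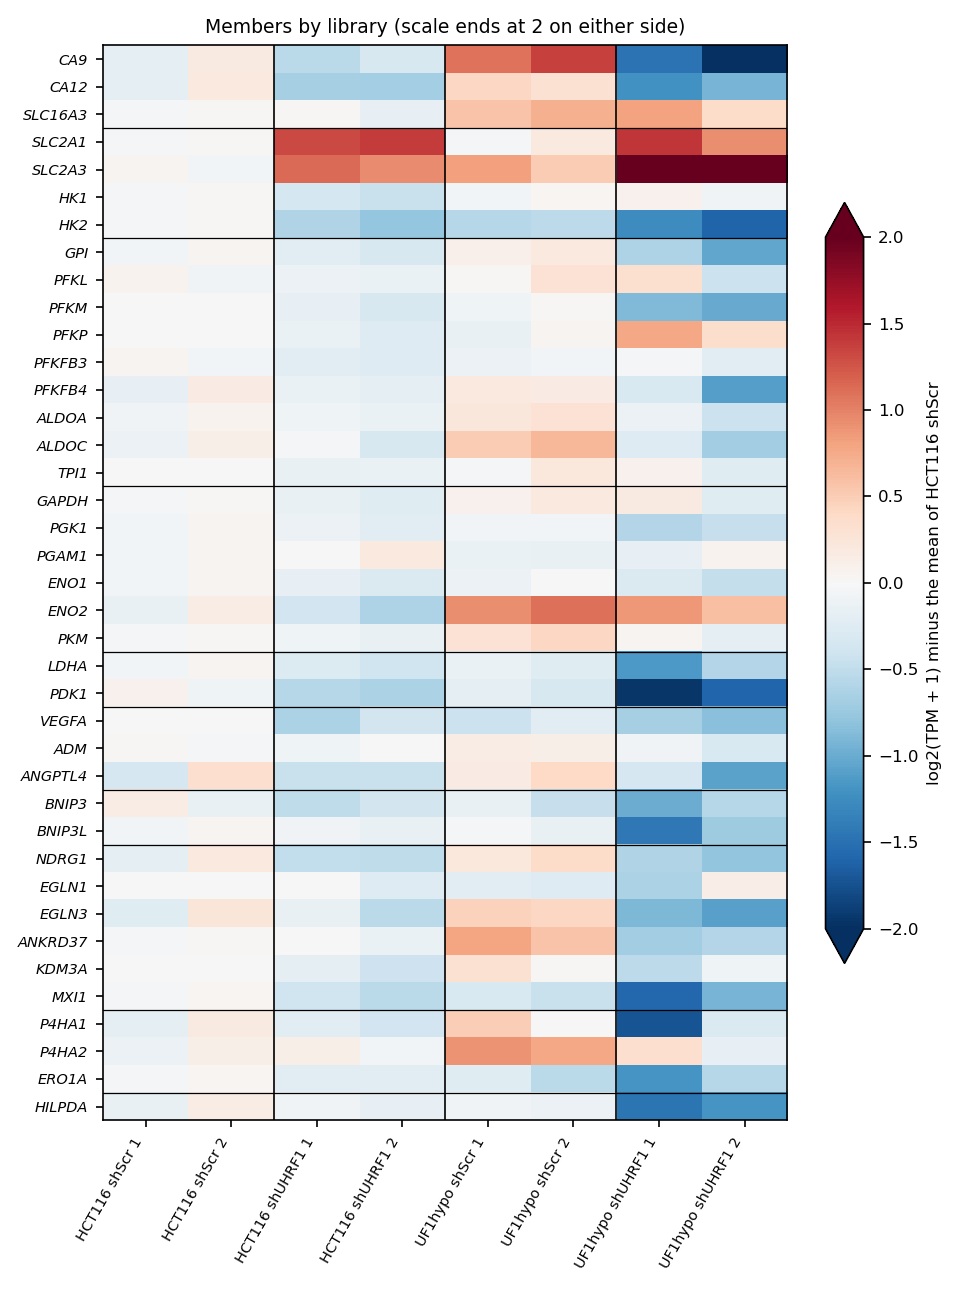
Level of 39 members in each of the 8 libraries, as log2(TPM + 1) minus the mean of HCT116 shScr for that gene (blue lower, red higher, colours saturating at 2 on either side). Black lines separate the groups and the roles; the UF1hypo shUHRF1 columns are blue for most genes, while *SLC16A3*, *SLC2A1*, *SLC2A3*, *PFKP* and *ENO2* are red in both.

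At an adjusted p below 0.05 after *UHRF1* knockdown, 15 of the 37 tested members fell in UF1hypo (40.5%, against 2.86% of all genes). None did in HCT116, where 3 of 12704 genes fell. All groups shared 1 estimate of the spread, although the replicates of UF1hypo shUHRF1 differed most. The SD of their log2 difference was 0.64, against 0.28 to 0.31 in the other groups. With only the libraries of a comparison fitted, 515 rather than 9 of all genes passed in HCT116, and 563 rather than 1809 in UF1hypo. The counts of the 2 lines therefore do not measure a difference between them. Calls needed an adjusted p below 0.05 and a log2 fold change over 1 in size on log2(TPM + 1), a scale that understates the change of low genes. In HCT116 none of the 37 tested members was called by limma, against 0.0472% of 12704 genes called higher and 0.0236% called lower. At an unadjusted p below 0.05 there were 8 members, against 810 of all genes: *CA12*, *ENO2*, *HK1*, *HK2*, *NDRG1*, *PDK1* and *VEGFA* on the lower side and *SLC2A3* on the higher. *SLC2A3* became a call in HCT116 when only the 4 HCT116 libraries were fitted, with library weights, with the GC correction, and when either UF1hypo shUHRF1 library was left out.

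In UF1hypo, 1 member was called higher and 6 were called lower after the knockdown. *SLC2A3* (a neuronal-type glucose transporter) rose, against a background of 7.39% of 13620 genes. *CA12*, *PDK1*, *EGLN3*, *ANKRD37*, *HILPDA* and *ALDOC* fell, which is 16.2% of the 37 against 1.14% of all genes. With the adjusted p alone and no limit on the fold change, 15 members fell (40.5%, against 2.86% of all genes) and 2 rose, *SLC2A3* and *PFKP* (5.41%, against 10.4%). With the GC correction 1 member was called higher and 13 lower, where 884 and 225 of all 13620 genes were. Leaving out UF1hypo shUHRF1 replicate 1 gave 1 and 11, where 965 and 156 of 13344 genes were called. Library weights left 1 and 3, where 476 and 63 of 13620 genes were called.

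Counts of libraries, which need no model, gave similar numbers of lower members in HCT116 and UF1hypo, unlike the counts by adjusted p. Both shUHRF1 libraries lay below both controls for 26 of 37 members in HCT116 (70.3%, against 29.3% of all tested genes) and for 27 in UF1hypo (73.0%, against 18.3%). Both lay above the controls for *SLC2A3* in HCT116 (2.70%, against 20.1% of all genes) and for *SLC2A3* and *PFKP* in UF1hypo (5.41%, against 30.6%). The median log2 fold change of the 37 members was -0.22 in HCT116, where that of all tested genes was -0.03, and -0.49 in UF1hypo, where that of all tested genes was 0.04. The fitted change was below 0 in both lines for 32 of the 37 members, and for 3825 of the 12543 genes tested in both. Over the alternative settings the number of members below 0 ran from 32 to 35 in HCT116 and from 30 to 34 in UF1hypo.

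Among the genes that handle acid, *CA9* and *CA12* encode carbonic anhydrases that sit on the cell surface and buffer the acid made by glycolysis. *CA9* (ENSG00000107159.13; GRCh38 chromosome 9, 35673918 to 35681159, plus strand) is a classical marker of hypoxic tumor regions. Its level was 4.86 and 6.52 TPM with shScr and 3.57 and 4.32 with shUHRF1 in HCT116, and 13.0 and 16.1 with shScr and 1.38 and 0.42 with shUHRF1 in UF1hypo. The UF1hypo controls were thus the highest and the UF1hypo knockdown libraries the lowest of the 8, and no libraries overlapped between groups. In RNA of whole cultures, fewer expressing cells and less RNA per cell cannot be told apart. On the log2 scale *CA9* was lower by a fold change of -3.07 (SE 0.29) after the knockdown in UF1hypo and of -0.43 (SE 0.29) in HCT116, and UF1hypo shScr lay 1.22 (SE 0.29) above HCT116 shScr. The value of *CA9* in UF1hypo was -4.05 with a pseudocount of 0.1 and -2.45 on FPKM.

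*CA12* (ENSG00000074410.14; chromosome 15, 63321378 to 63381846, minus strand) had the same order of group means. It had 2.93 and 4.11 TPM in HCT116 shScr against 1.82 and 1.78 in HCT116 shUHRF1, and 5.01 and 4.57 in UF1hypo shScr against 0.93 and 1.36 in UF1hypo shUHRF1. The fall in UF1hypo was -1.44 (SE 0.22, adjusted p = 0.0041), and the change in HCT116 was -0.68 (SE 0.24, adjusted p = 0.55). With library weights the UF1hypo call was lost (adjusted p = 0.084). *SLC16A3*, the lactate exporter MCT4, did not follow them: it had 427 and 443 TPM with shScr and 441 and 388 with shUHRF1 in HCT116, and 646 and 716 with shScr and 764 and 560 with shUHRF1 in UF1hypo. Its knockdown libraries overlapped their controls in both lines.

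Glucose enters the cell through facilitative transporters and is trapped by hexokinases. *SLC2A1* (GLUT1, ENSG00000117394.24; chromosome 1, 42925353 to 42958893, minus strand) is the general transporter of cancer cells and a HIF target. Unlike *CA9*, it was higher in the knockdown of both lines: 150.01 and 155 TPM in HCT116 shScr against 382 and 403 in HCT116 shUHRF1, and 149 and 175 in UF1hypo shScr against 411 and 292 in UF1hypo shUHRF1. On the log2 scale the difference was 1.36 (SE 0.18) in HCT116 and 1.096 (SE 0.18) in UF1hypo, and the control libraries of the lines overlapped. The GC correction moved the UF1hypo difference to 0.95.

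*SLC2A3* (GLUT3, ENSG00000059804.16; chromosome 12, 7919230 to 7936187, minus strand) has a higher affinity for glucose than GLUT1. It was at 1.63 and 1.42 TPM in HCT116 shScr against 4.54 and 3.87 in HCT116 shUHRF1, and 3.47 and 2.59 in UF1hypo shScr against 66.1 and 94.3 in UF1hypo shUHRF1. Both UF1hypo knockdown libraries stood far above all others. Its rise in UF1hypo was 4.32 (SE 0.24, adjusted p = 1.7e-05), a 20.0-fold change on that scale, and it was called in all 22 alternatives. In HCT116 the change was 1.04 (SE 0.24), with an adjusted p of 0.25 that ran from 0.0041 to 1.00 over the alternatives. *SLC2A14*, a near-identical copy next to *SLC2A3* that could share reads with it, reached 0.59 and 0.67 TPM in UF1hypo shUHRF1 and at most 0.03 TPM elsewhere, and was named after its values were seen. The 3 pseudogenes of *SLC2A3* took up to 27.1% of the summed TPM in the library where that share was largest, with 0.73 TPM at most.

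The hexokinases differed from each other. *HK2*, the inducible form, had 45.8 and 46.9 TPM with shScr and 30.4 and 26.8 with shUHRF1 in HCT116, and 31.0 and 32.0 with shScr and 18.9 and 14.6 with shUHRF1 in UF1hypo. It fell in UF1hypo by a log2 fold change of -0.88 (SE 0.18, adjusted p = 0.015), short of the limit on the fold change, and its change in HCT116 was -0.68 (SE 0.18, adjusted p = 0.33). The constitutive *HK1* stayed between 70.9 and 79.3 TPM in the UF1hypo libraries, where the groups overlapped, and was at 73.6 and 75.2 TPM in HCT116 shScr and at 58.2 and 54.6 TPM in HCT116 shUHRF1 (log2 fold change -0.39, adjusted p = 0.63).

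The 9 members of upper glycolysis carry glucose 6-phosphate to the triose phosphates. *ALDOC*, the brain-type aldolase (ENSG00000109107.14; chromosome 17, 28573115 to 28576948, minus strand), was the only one called. It had 65.5 and 76.9 TPM in HCT116 shScr against 69.8 and 56.5 in HCT116 shUHRF1, and 101 and 113 in UF1hypo shScr against 59.0 and 43.6 in UF1hypo shUHRF1. It fell in UF1hypo by -1.06 (SE 0.20, adjusted p = 0.0095), with -0.17 (adjusted p = 1.00) in HCT116, where the groups overlapped. That call was lost with the 4 UF1hypo libraries alone (adjusted p = 0.074), with library weights (0.079), and without UF1hypo shScr replicate 1, UF1hypo shScr replicate 2 or UF1hypo shUHRF1 replicate 2, which left log2 fold changes of -1.14, -0.98 and -0.85.

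Among the other upper enzymes, *GPI* (glucose 6-phosphate isomerase), *PFKM* (muscle-type phosphofructokinase) and *ALDOA* (the main aldolase) passed the adjusted p in UF1hypo with a smaller fold change. *GPI* had 409 and 445 TPM with shScr and 367 and 343 with shUHRF1 in HCT116, and 459 and 487 with shScr and 277 and 208 with shUHRF1 in UF1hypo, a fall of -0.98 (SE 0.16, adjusted p = 0.0054). *PFKM* was at 117 and 127 TPM in UF1hypo shScr and at 67.1 and 61.5 in UF1hypo shUHRF1, a fall of -0.92 (SE 0.14, adjusted p = 0.0041). *ALDOA* was at 2506 and 2612 TPM in UF1hypo shScr and at 1968 and 1593 in UF1hypo shUHRF1, a fall of -0.53 (SE 0.14, adjusted p = 0.042). The platelet-type *PFKP* went the other way.

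*PFKP* had 423 and 430 TPM in HCT116 shScr against 389 and 356 in HCT116 shUHRF1, and 383 and 443 in UF1hypo shScr against 733 and 542 in UF1hypo shUHRF1. It rose in UF1hypo by 0.61 (SE 0.17, adjusted p = 0.047), and the GC correction left 0.37 (adjusted p = 0.0068). For the liver-type *PFKL*, *TPI1* (triose phosphate isomerase) and the regulatory kinase *PFKFB3* the UF1hypo libraries overlapped between groups, with log2 fold changes of -0.22, -0.16 and -0.05. *PFKFB4*, another kinase that sets the level of the allosteric activator of phosphofructokinase, was at 27.4 and 26.7 TPM in UF1hypo shScr and at 19.0 and 10.5 in UF1hypo shUHRF1 (log2 fold change -0.89, adjusted p = 0.063). In HCT116 all 9 upper members had a fitted change below 0, between -0.11 and -0.27, and none passed the test.

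The shares of isoenzymes within a reaction are free of the scaling between libraries. They were not corrected for GC content, which was 63.4% for *PFKL*, 57.8% for *PFKP* and 50.4% for *PFKM*. *PFKP* made up 55.4% and 57.2% of the summed phosphofructokinase TPM with shScr and 56.4% and 55.4% with shUHRF1 in HCT116, and 54.0% and 53.9% with shScr and 69.4% and 71.7% with shUHRF1 in UF1hypo. *PFKM* was correspondingly at 16.5% and 15.4% in UF1hypo shScr and at 6.35% and 8.14% in UF1hypo shUHRF1. The *HK2* share of the hexokinases was 38.3% and 38.4% with shScr and 34.3% and 32.9% with shUHRF1 in HCT116, and 30.1% and 29.5% with shScr and 19.3% and 17.1% with shUHRF1 in UF1hypo. Its shUHRF1 libraries were below the controls in both lines. Between the transporters, *SLC2A3* made up 0.90% to 1.17% in the HCT116 libraries, 2.27% and 1.46% with shScr in UF1hypo and 13.9% and 24.4% with shUHRF1 there. With 2 libraries a group an exact permutation test cannot reach the threshold, and no share was tested.

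Lower glycolysis turns the trioses into pyruvate and yields the ATP. None of its 6 members was called after the knockdown in either line. *ENO1* was at 3379 and 3637 TPM with shScr and 3116 and 2878 with shUHRF1 in HCT116, and 3243 and 3502 with shScr and 2878 and 2511 with shUHRF1 in UF1hypo, with log2 fold changes of -0.23 (adjusted p = 0.91) and -0.33 (adjusted p = 0.15). *PGK1* (phosphoglycerate kinase) and *PKM* (pyruvate kinase) had -0.47 (adjusted p = 0.052) and -0.42 (adjusted p = 0.077) in UF1hypo, with both knockdown libraries below the controls. *GAPDH* overlapped between the UF1hypo groups, with 6177 and 6702 TPM in shScr and 6625 and 4939 in shUHRF1. *PGAM1* (phosphoglycerate mutase) overlapped in both lines and had fitted changes of 0.10 in HCT116 and 0.09 in UF1hypo. Pseudogenes of *PGAM1* took up to 4.22% of the summed TPM of gene and copies, and those of *GAPDH*, *ENO1*, *PKM*, *PGK1* and *TPI1* at most 0.24%.

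Pyruvate is reduced to lactate by *LDHA* or kept out of the mitochondrial citrate cycle by *PDK1*, the kinase that inactivates pyruvate dehydrogenase. *PDK1* (ENSG00000152256.14; chromosome 2, 172555373 to 172608669, plus strand) had 5.77 and 4.96 TPM in HCT116 shScr against 3.29 and 3.09 in HCT116 shUHRF1, and 4.59 and 4.09 in UF1hypo shScr against 0.66 and 1.11 in UF1hypo shUHRF1. Knockdown libraries lay below their controls in both lines. The fall in UF1hypo was -1.51 (SE 0.21, adjusted p = 0.0027) and was called in all 22 alternatives, while the change in HCT116 was -0.60 (SE 0.23, adjusted p = 0.63). *LDHA* was at 1107 and 1205 TPM with shScr and 953 and 877 with shUHRF1 in HCT116, and 1050 and 981 with shScr and 520 and 769 with shUHRF1 in UF1hypo. It fell in UF1hypo by -0.68 (SE 0.18, adjusted p = 0.045), with -0.34 (adjusted p = 0.89) in HCT116.

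Of the HIF targets outside glycolysis, the genes grouped under oxygen sensing and chromatin feedback held the calls of *EGLN3* and *ANKRD37* in UF1hypo. *EGLN3* encodes a prolyl hydroxylase that marks HIF and is itself induced by it (ENSG00000129521.15; chromosome 14, 33924227 to 34462774, minus strand). It had 6.06 and 8.83 TPM in HCT116 shScr against 6.48 and 4.76 in HCT116 shUHRF1, and 10.4 and 10.1 in UF1hypo shScr against 3.48 and 2.95 in UF1hypo shUHRF1. The fall in UF1hypo was -1.42 (SE 0.24, adjusted p = 0.0062), while the HCT116 groups overlapped. Leaving out UF1hypo shScr replicate 1 (adjusted p = 0.059) or weighting the libraries (0.14) lost the call. Its paralog *EGLN1*, the main oxygen sensor, overlapped between the groups of both lines, with 37.9 and 37.0 TPM in UF1hypo shScr against 28.3 and 48.9 in UF1hypo shUHRF1.

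*ANKRD37*, a hypoxia-induced ankyrin repeat protein (ENSG00000186352.9; chromosome 4, 185396021 to 185400628, plus strand), was at 19.8 and 20.5 TPM in HCT116 shScr and at 20.0 and 18.2 in HCT116 shUHRF1, which overlapped. In UF1hypo it went from 35.5 and 30.2 TPM to 12.02 and 13.0, a fall of -1.32 (SE 0.18, adjusted p = 0.0020) that was called in all 22 alternatives. *NDRG1*, a stress-response gene named for its regulation by N-myc, had 218 and 287 TPM with shScr and 177 and 175 with shUHRF1 in HCT116, and 290.3 and 322 with shScr and 165 and 144 with shUHRF1 in UF1hypo. It fell in UF1hypo by -0.98 (SE 0.17, adjusted p = 0.0062), just short of the limit on the fold change, and its HCT116 change was -0.51 (adjusted p = 0.51). *MXI1*, a repressor that opposes MYC, fell in UF1hypo by -0.87 (SE 0.22, adjusted p = 0.034), from 45.2 and 40.7 TPM to 18.2 and 28.8. *KDM3A*, an oxygen-dependent histone demethylase, had 35.3 and 28.96 TPM in UF1hypo shScr against 19.5 and 26.8 in UF1hypo shUHRF1 (log2 fold change -0.46, adjusted p = 0.19).

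*HILPDA* encodes a protein that blocks lipase and keeps lipid droplets (ENSG00000135245.10; chromosome 7, 128455849 to 128458418, plus strand). The first 3 groups lay close together, with 38.2 and 46.7 TPM for HCT116 shScr, 40.2 and 37.7 for HCT116 shUHRF1 and 40.2 and 38.8 for UF1hypo shScr, and UF1hypo shUHRF1 was apart with 14.7 and 18.0. The fall in UF1hypo was -1.23 (SE 0.18, adjusted p = 0.0032) and was called in all 22 alternatives. The mitophagy receptor *BNIP3L* fell as well, by -0.98 (SE 0.24, adjusted p = 0.029), from 38.6 and 35.4 TPM to 14.0 and 23.7. Its relative *BNIP3* was at 21.6 and 17.1 TPM in UF1hypo shScr and at 11.6 and 15.8 in UF1hypo shUHRF1 (log2 fold change -0.47, adjusted p = 0.21), and its pseudogenes took up to 23.0% of the summed TPM of gene and copies.

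For the collagen and secretory genes the replicates of UF1hypo shUHRF1 were far apart. *P4HA1*, a subunit of collagen prolyl hydroxylase, had 31.0 and 39.9 TPM in HCT116 shScr against 30.01 and 26.8 in HCT116 shUHRF1, and 50.1 and 35.3 in UF1hypo shScr against 9.96 and 28.6 in UF1hypo shUHRF1. Its log2 fold change in UF1hypo was -1.26 (SE 0.41, adjusted p = 0.082), and it was -1.97 (adjusted p = 0.0024) without UF1hypo shUHRF1 replicate 2 and -0.54 (adjusted p = 0.17) without replicate 1. *P4HA2*, the paralogous subunit, was at 25.4 and 30.3 TPM with shScr and 30.2 and 26.6 with shUHRF1 in HCT116, and 52.7 and 48.0 with shScr and 35.2 and 24.7 with shUHRF1 in UF1hypo, a fall in UF1hypo of -0.75 (SE 0.21, adjusted p = 0.049). With the GC correction *P4HA2* no longer passed (-0.71, adjusted p = 0.057). *ERO1A*, an oxidase of the endoplasmic reticulum, had 61.2 and 49.4 TPM in UF1hypo shScr against 31.5 and 48.2 in UF1hypo shUHRF1 (log2 fold change -0.49, adjusted p = 0.19). *LOX* was at 0.41 and 0.29 TPM in UF1hypo shScr and at 0.15 and 0.48 in UF1hypo shUHRF1, at 0.16 and 0.20 TPM in HCT116 shScr, and at 0.20 and 0.19 in HCT116 shUHRF1.

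None of the 3 secreted factors passed the test in either line. *VEGFA*, the growth factor of blood vessels, was at 60.7 and 60.1 TPM in HCT116 shScr against 38.8 and 46.9 in HCT116 shUHRF1, and 44.5 and 51.3 in UF1hypo shScr against 37.6 and 33.4 in UF1hypo shUHRF1. The knockdown libraries were below their controls in both lines, with log2 fold changes of -0.49 (adjusted p = 0.55) and -0.42 (adjusted p = 0.15). *ANGPTL4*, an inhibitor of lipoprotein lipase, had 47.1 and 55.7 TPM in UF1hypo shScr against 32.9 and 19.5 in UF1hypo shUHRF1 (log2 fold change -0.99, adjusted p = 0.058). *ADM*, the vasodilator adrenomedullin, had 88.4 and 86.6 TPM in UF1hypo shScr against 75.4 and 64.4 in UF1hypo shUHRF1 (log2 fold change -0.32, adjusted p = 0.19).

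Whether the knockdown acted differently in the 2 lines was tested as the difference of the effects, UF1hypo minus HCT116. Of the 37 members 1 was called higher (4.54% of 13781 genes were) and 2 lower (0.559% were). *SLC2A3* differed by 3.28 (SE 0.34, adjusted p = 0.0014) and was called in all 21 alternatives. *ANKRD37* differed by -1.25 (SE 0.25, adjusted p = 0.027), with an adjusted p between 0.0024 and 0.17 over the alternatives. *HILPDA* differed by -1.11 (SE 0.25, adjusted p = 0.045), with an adjusted p between 0.0035 and 0.24. Both of these calls were lost with the replicate block, with library weights, and without any single library of the other 3 groups. That of *HILPDA* was also lost with the pseudocount of 0.1, over all annotated genes, on FPKM, with crossed replicate numbers, and without UF1hypo shUHRF1 replicate 1, so it held in 8 of 21 alternatives. The difference of *CA9*, given without a test, was -2.65 (SE 0.41) and that of *SLC2A1* was -0.26 (SE 0.26). For the other members called in UF1hypo the difference did not pass the test: *CA12* -0.76 (adjusted p = 0.24), *PDK1* -0.91 (0.14), *EGLN3* -1.08 (0.12) and *ALDOC* -0.89 (0.12). With the GC correction *ALDOC* passed both limits (-1.04, adjusted p = 0.0068) and *PDK1* the adjusted p alone (-0.90, adjusted p = 0.036). *PFKP*, whose fitted changes had opposite signs in the lines, differed by 0.81 (SE 0.24, adjusted p = 0.10). With the GC correction it passed the adjusted p (0.57, adjusted p = 0.0093). So did *GPI*, *PFKM*, *PFKFB4*, *ALDOA*, *PKM*, *ADM*, *NDRG1* and *BNIP3L*, all on the lower side. Among all 13781 genes 2236 passed with the correction, against 720 without it.

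The control hairpin libraries of the 2 lines show how the heterozygous clone stood before the knockdown. They are also the controls of both knockdown comparisons, so the values are set side by side and no relation between them is drawn. *ENO2*, the neuronal enolase (ENSG00000111674.9; chromosome 12, 6913745 to 6923698, plus strand), was the only 1 of 37 members called, against 2.59% of 12856 genes called higher and 0.949% called lower. It had 60.9 and 75.7 TPM with shScr and 52.1 and 44.1 with shUHRF1 in HCT116, and 129.9 and 146 with shScr and 125 and 104 with shUHRF1 in UF1hypo. *ENO2* was higher in UF1hypo shScr by a log2 fold change of 1.01 (SE 0.18, adjusted p = 0.016). The GC correction left 0.93, under the limit on the fold change, and leaving out any one of the 4 control libraries raised the adjusted p to between 0.066 and 0.21. The median change of the 37 members was 0.14, and that of all tested genes was -0.05. Among the changes above 0.5 in size, *P4HA2*, *ANKRD37*, *SLC2A3*, *SLC16A3* and *ALDOC* were higher in both UF1hypo shScr libraries than in both HCT116 shScr libraries, with log2 fold changes of 0.83, 0.68, 0.67, 0.64 and 0.59 and adjusted p from 0.060 to 0.18, and *HK2* was lower in both, with -0.54 (adjusted p = 0.15). With the GC correction these 6 genes had an adjusted p below 0.05, from 0.0030 for *ANKRD37* to 0.030 for *ALDOC*, and none passed the limit on the fold change. At that adjusted p 2054 of 12856 genes passed with the correction, against 614 without it. The share of all genes with no overlap between the control groups was not counted.

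Part of the spread in UF1hypo shUHRF1 went with the base composition of the transcripts. The members had a median GC content of 52.0%, from 37.4% to 64.7%, and all tested genes a median of 50.2%. Across the 39 members the difference between the replicates of UF1hypo shUHRF1 had a Spearman's rho of -0.81 with GC content, and that of UF1hypo shScr had 0.79, a description over genes of the same libraries. *P4HA1* and *BNIP3L*, with GC contents of 39.7% and 37.4%, were higher in replicate 2 of UF1hypo shUHRF1, and *PFKL* and *SLC16A3*, with 63.4% and 64.7%, were higher in replicate 1. After the correction *HK2*, *GPI*, *PFKM*, *PFKFB4*, *NDRG1*, *P4HA1* and *ANGPTL4* also passed both limits in UF1hypo, with log2 fold changes between -1.26 and -1.03. A further group passed the adjusted p with the correction and not without it, at smaller fold changes: *PKM* (-0.58), *VEGFA* (-0.57), *PFKL* (-0.52), *ENO1* (-0.48), *ADM* (-0.48), *ENO2* (-0.43), *KDM3A* (-0.42), *SLC16A3* (-0.33), *GAPDH* (-0.32) and *TPI1* (-0.32), with adjusted p from 0.0010 for *PKM* to 0.047 for *GAPDH*. Among all 13620 genes, 2054 passed the adjusted p on the lower side with the correction, against 390 without it. The fall of *ALDOA* moved from -0.53 to -0.80. In HCT116 *HK2* passed the adjusted p with the correction (-0.61, adjusted p = 0.034). There 232 of 12704 genes passed on the lower side with it, against 3 without. All 7 members called without the correction stayed called with it.

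HIF bind DNA at a core of 5 bases, ACGTG or GCGTG, and promoters from RefSeq (GRCh38.p14; 250 bases before to 50 bases after a start site) were searched for it on both strands. Of the 40 members 35 were in that table, with 66 start sites. The core, counting its reverse complements CACGT and CACGC, was present at 46 of these start sites (69.7%) and at 48.4% of all 35116, and the ACGTG form alone at 43.9% and 21.4%. For the 12 members that fell in UF1hypo at an adjusted p below 0.05 and were in the table, the core was at 16 of 25 start sites (64.0%). The ACGTG form was at 13 of them (52.0%). Start sites of 1 gene are not independent, and many members were listed as HIF targets, so the shares are a description. Whether base composition has a part in them was not tested. Windows of 30 bases around the match nearest to a start site are shown for the called members and for *CA9* and *SLC2A1*. Only that match is in capitals, in the direction of the gene, and the *PDK1* window holds another core in lower case.
CA9: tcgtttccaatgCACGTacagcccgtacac
PDK1: cgccacgtccctCACGTaccactcggcaga
ALDOC: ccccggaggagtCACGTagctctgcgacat
ANKRD37: cagtgtttgtgtACGTGcggccgtggcggg
CA12: acggcacccaggctgcgcgCACGCggtccc
ENO2: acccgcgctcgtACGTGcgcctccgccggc
SLC2A1: tagcaacagcgaGCGTGccggtcgctagtc

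These windows lie at chr9:35673898-35673927 (*CA9*, plus strand), chr2:172556070-172556099 (*PDK1*, plus), chr17:28576906-28576935 (*ALDOC*, minus), chr4:185396686-185396715 (*ANKRD37*, plus), chr15:63381797-63381826 (*CA12*, minus), chr12:6914450-6914479 (*ENO2*, plus) and chr1:42958826-42958855 (*SLC2A1*, minus). The ACGTG form, read on either strand, was the nearest one for *CA9*, *PDK1*, *ALDOC*, *ANKRD37* and *ENO2*, and the GCGTG form for *CA12* and *SLC2A1*. Counted in bases from the start site, with negative values before it, the center of the core was at -6 in *PDK1*, -16 in *CA9*, -26 in *ALDOC*, -116 in *ENO2*, -141 in *ANKRD37*, 27 in *SLC2A1* and 41 in *CA12*. The start sites are those of the RefSeq promoters, which can lie inside the gene spans given above. *EGLN3* had no match in its window. *SLC2A3*, *HILPDA*, *VEGFA*, *NDRG1* and *BNIP3L* were not in the table. A match describes the letters of the promoter and not a bound site.

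Further genes of the pathway came from lists chosen with earlier results of these data known. Of 16 regulators of HIF, 1 was called lower in UF1hypo (1.14% of all genes were) and none higher (7.39% were). The called gene was *EPAS1*, which encodes HIF-2 alpha. *EPAS1* had 34.6 and 30.3 TPM in HCT116 shScr against 20.3 and 19.5 in HCT116 shUHRF1, and 25.3 and 26.7 in UF1hypo shScr against 9.05 and 8.79 in UF1hypo shUHRF1. It fell in UF1hypo by -1.44 (SE 0.17, adjusted p = 0.0011), with -0.68 (adjusted p = 0.30) in HCT116. *HIF1A*, named here after its values were seen, had 73.1 and 56.1 TPM in UF1hypo shScr against 57.9 and 113 in UF1hypo shUHRF1, which overlapped. Its log2 fold change there was 0.33 (adjusted p = 0.50), and 0.48 (adjusted p = 0.0077) with the GC correction. The difference of the effects between the lines was 0.64 (adjusted p = 0.47) for *HIF1A*, and 0.72 (adjusted p = 0.012) with the correction. *MYC*, which also drives glycolytic genes, was called lower in UF1hypo shScr than in HCT116 shScr, with 252 and 217 against 485 and 493 TPM (log2 fold change -1.06, adjusted p = 0.0040). The GC correction left *MYC* at -0.98, under the limit on the fold change, and its change after the knockdown in UF1hypo was -0.18 (adjusted p = 0.45).

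Of 25 further HIF targets 21 were tested in UF1hypo. There 2 were called higher (7.39% of all genes were) and none lower (1.14% were). At the adjusted p alone 4 were higher (10.4% of all genes were) and 2 lower (2.86% were). The heme oxygenase *HMOX1* rose from 34.3 and 30.3 to 101 and 98.7 TPM (log2 fold change 1.597, adjusted p = 3.9e-04). *STC2*, a secreted glycoprotein, had a called difference of the effects: 74.8 and 73.6 TPM in HCT116 shScr against 36.1 and 35.3 in HCT116 shUHRF1, and 35.0 and 33.0 in UF1hypo shScr against 73.1 and 61.0 in UF1hypo shUHRF1 (difference 1.99, adjusted p = 0.0020). The median log2 fold change of these 21 targets was -0.06 in UF1hypo and that of 20 in HCT116 was -0.19, where none was called. Between the control libraries *IGFBP3* was called higher in UF1hypo shScr, and *STC2* and *DDIT4*, an inhibitor of mTOR signaling, lower.

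Of 36 other genes of glucose and pyruvate metabolism 29 were tested in UF1hypo, with 2 called higher (7.39% of all genes were) and 2 lower (1.14% were). *PDK3*, a sister kinase of *PDK1*, fell from 5.27 and 4.42 to 1.26 and 2.00 TPM (log2 fold change -1.16, adjusted p = 0.012), and the phosphoglucomutase *PGM1* from 83.3 and 88.2 to 41.1 and 39.5 (-1.07, adjusted p = 0.0022). The gluconeogenic phosphatase *FBP1* rose from 0.14 and 0.10 to 6.57 and 2.65 TPM (2.23, adjusted p = 0.0028), and *HKDC1*, a further hexokinase, from 0.56 and 0.67 to 4.99 and 3.43 (1.67, adjusted p = 0.0025). Both were below 1 TPM in all HCT116 libraries. None of the 27 tested in HCT116 was called after the knockdown. *PCK2* and *SLC16A7* were called lower in UF1hypo shScr than in HCT116 shScr, and the GC correction left *SLC16A7* at -0.90, under the limit on the fold change.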

How the data were processed

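RNA of 8 libraries in 4 groups of 2 was analysed. The authors used Fastp for trimming, HISAT2 2.0.4 for alignment (genome build GRCh38) and StringTie 2.1.4 for quantification, per the labels and methods; the annotation version and strandedness are not given in the sources used here. The deposited TPM and FPKM values were normalized by the authors for gene length and depth, and the deposited coverage is the unscaled mean depth per base, used only to recover aligned bases. Levels were analysed as log2(TPM + 1) in 1 fit of all libraries with limma 3.58.1 in R 4.3.3 (4 group means, trended variances, 4 residual degrees of freedom, Benjamini-Hochberg). Protein-coding genes with TPM above 1 in at least 1 library of a contrast were tested. The authors used DESeq2, which needs counts and was not run. The fit was tested on simulated data. The members, lists and tests were chosen with earlier results of these data known. Named genes are all members, called genes of the other lists, and *UHRF1*; *HIF1A*, *SLC2A14* and single marker genes were named after their values were seen. Some called genes of the other lists are not reported here. Every library is given for *CA9*, *SLC2A1*, called members, members under a TPM of 1 throughout, and the 10 largest changes per contrast above 0.5 in size with no overlap between groups. The FPKM values served as an alternative unit. Other alternatives changed the pseudocount (0.1), filter, gene set, records, libraries fitted, fold limit, scaling, trend, library weights, replicate block, GC content and length (medians removed in 10 bins), or left out a library.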

Additional observations from a re-analysis of the deposited data

Results flagged for a closer look

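The effect of the *UHRF1* knockdown differed between the 2 lines for 3 tested members, by the test of the difference itself (UF1hypo minus HCT116, limma). *SLC2A3* was one, with a difference of 3.28 on the log2 scale, from 3.47 and 2.59 to 66.1 and 94.3 TPM in UF1hypo and from 1.63 and 1.42 to 4.54 and 3.87 in HCT116. *ANKRD37* was another, with a difference of -1.25, from 35.5 and 30.2 to 12.02 and 13.0 TPM in UF1hypo, where HCT116 held 18.2 to 20.5 TPM in all 4 libraries. *HILPDA* was the third, with a difference of -1.11, from 40.2 and 38.8 to 14.7 and 18.0 TPM in UF1hypo and between 37.7 and 46.7 TPM in the HCT116 libraries. The calls of *ANKRD37* and *HILPDA* were lost with the replicate block, with library weights and without any single library other than those of UF1hypo shUHRF1, and they held in 13 and 8 of 21 alternatives. No group had enough libraries to test for an outlying one.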

How the results depend on the processing

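Calls among the 37 tested members depended on the setting. In HCT116 the count was 0, where 9 of 12704 genes were called. It was 1 (*SLC2A3*) with the HCT116 libraries alone (89 of all genes) and with library weights (101). The same held for the GC correction without or with the replicate block (76 and 73 of all genes). The count also changed when either UF1hypo shUHRF1 library was left out. In UF1hypo the count was 7; it was 4 with library weights, 14 with the GC correction without or with the block, 17 with no limit on the fold change, and 6 to 12 without 1 library (12 without UF1hypo shUHRF1 replicate 1). The difference of the effects gave 3 calls, where 702 of 13781 genes were called. It gave 1 with library weights (419 of all genes) and 1 with the replicate block (471). Without either UF1hypo shUHRF1 library the counts of members and of all genes were both higher, and without any other library both were lower. UF1hypo shScr against HCT116 shScr gave 1, where 455 of 12856 genes were called. With the GC correction without or with the block it gave 0 (488 and 486 of all genes). That call was also lost when any of the 4 control libraries was left out. No called member changed sign under any alternative. The cause of these changes was not tested. The replicate numbers appear in all groups, but with 2 a group they cannot be shown to pair the libraries: deviations of same-numbered libraries correlated with r = 0.06 in HCT116 and r = -0.46 in UF1hypo across 12464 genes. The replicate block left the counts of calls of the other 3 comparisons at 0, 7 and 1. With the numbers crossed in UF1hypo shUHRF1, chosen after seeing the data, the counts were 0 in HCT116, 7 in UF1hypo, 2 for the difference and 1 between the controls. With no counts, the depth behind a low gene such as *CA9* or *PDK1* is unknown.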
